A study of Mus musculus with 15 samples.

Results

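The 10 genes described here encode subunits of the Polycomb repressive complexes: *Ezh2*, *Suz12*, *Eed*, *Jarid2* and *Mtf2* of Polycomb repressive complex 2 (PRC2), and *Rnf2*, *Ring1*, *Pcgf6*, *Cbx7* and *Kdm2b* of PRC1. They were chosen by name, and each was matched to its transcript by the gene symbol that GENCODE M21 gives. All 10 were among the 21727 transcripts of the count table, and all 10 were among the 10085 transcripts tested, which had a CPM (read count scaled to the library size) over 2 in at least 14 of the 15 libraries.

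The study asked whether ribosomes that hold either of the paralogous ribosomal proteins Rps27 (eS27) and Rps27l (eS27L) associate with different mRNAs. It used ribosome profiling, in which the mRNA fragments that a ribosome protects from nuclease (ribosome-protected fragments, RPFs, or footprints) are sequenced and counted. All cells were E14Tg2a.4 mouse embryonic stem cells (mESCs) grown with serum and leukemia inhibitory factor and treated with cycloheximide, an elongation inhibitor, before lysis. In the *Rps27-FLAG* line both endogenous *Rps27* alleles carry a C-terminal 3xFLAG epitope tag, in the *Rps27l-FLAG* line both *Rps27l* alleles do, and the WT line carries neither tag. Each line was represented by 3 independently selected clones, so a difference between lines cannot be told apart from a difference between the clones picked. Total RPFs were sequenced from all 9 clones, and RPFs recovered by anti-FLAG immunoprecipitation (IP RPFs) from the 6 tagged clones. No IP library came from untagged cells, so RPFs that the beads hold without a tag were not measured.

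PRC2 methylates lysine on histone H3 and PRC1 ubiquitinates histone H2A, and together they keep developmental regulators silent in stem cells. In PRC2, Ezh2 is the methyltransferase, and Suz12 and Eed complete the catalytic core, while Jarid2 and Mtf2 are accessory subunits that help bring it to chromatin and mark alternative assemblies. In PRC1, Rnf2 (Ring1b) and Ring1 are the paralogous E3 ligases, Cbx7 is the reader of methylated H3 in canonical PRC1, Pcgf6 defines one variant PRC1, and Kdm2b, a CpG-island binding protein, brings another to DNA.

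*Rnf2* and *Ring1* are paralogs of each other, and *Ezh2* has the paralog *Ezh1*. The stretches below are shown because a footprint has to tell the paralogs apart to be counted for one gene. They are the most alike in-frame windows of 90 nt in the coding sequences (CDS) of each pair, read 5′ to 3′ from the GENCODE M21 transcripts, and capitals mark the bases that differ within the pair. The first pair lies in the part that encodes the RING finger, and the second in the part that encodes the SET domain of the methyltransferases.
*Rnf2*, CDS positions 193 to 282, minus strand of chr1:151469406-151500955 (GRCm38): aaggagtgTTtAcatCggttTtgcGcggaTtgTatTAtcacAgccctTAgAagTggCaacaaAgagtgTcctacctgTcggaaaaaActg
*Ring1*, CDS positions 184 to 273, minus strand of chr17:34020792-34024680: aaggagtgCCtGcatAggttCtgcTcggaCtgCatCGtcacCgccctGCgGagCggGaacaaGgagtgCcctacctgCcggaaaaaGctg
*Ezh2*, CDS positions 1852 to 1941, minus strand of chr6:47530139-47595030: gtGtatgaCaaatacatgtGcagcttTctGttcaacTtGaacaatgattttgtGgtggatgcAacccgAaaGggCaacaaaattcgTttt
*Ezh1*, CDS positions 1981 to 2070, minus strand of chr11:101191116-101226450: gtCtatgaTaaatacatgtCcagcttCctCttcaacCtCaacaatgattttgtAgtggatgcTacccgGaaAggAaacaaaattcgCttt
CDS positions are counted from the A of the start codon. *Rnf2* and *Ring1* differed at 20 of these 90 bases, and *Ezh2* and *Ezh1* at 13. Over the aligned CDS the pairs were 68.0% and 70.4% identical, and the longest run of bases shared by the CDS was 14 nt for *Rnf2* and *Ring1* and 17 nt for *Ezh2* and *Ezh1*. Both runs are shorter than a window of 28 nt, about the length of a footprint. In 8 of the 10 genes no 28-nt window of the counted CDS occurred in another transcript of the table. The exceptions were *Suz12*, with 1 of 2139 windows, and *Kdm2b*, with 86 of 3843 windows, 85 of them shared with the gene model *Gm44574*. Counts came from unique alignments, which such windows would not give.

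The coding sequences differed in base composition. *Mtf2*, *Eed*, *Suz12*, *Ezh2* and *Rnf2* had a CDS of 42.8% to 45.1% G and C, at or below percentile 13.2 of tested transcripts, whereas *Ring1* and *Cbx7* had 62.5% and 63.1%. *Pcgf6* (51.2%), *Jarid2* (54.1%) and *Kdm2b* (56.2%) lay closer to the median of 52.7%, at percentiles 42.1, 58.3 and 70.7.

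The 9 total libraries held 6313827 to 8064166 counts and the 6 IP libraries 3972152 to 6673935. All 10 listed mESC markers, among them *Pou5f1*, *Nanog* and *Sox2*, were tested, and their summed level was 3784 to 4173 normalised CPM in the 9 total libraries and 4431 to 4589 in the 6 IP libraries, a difference whose part in the IP results was not tested. Summed levels over all 15 libraries were 9.90 to 54.8 normalised CPM for 7 primitive endoderm markers, 52.9 to 112.7 for 6 trophoblast markers, 27.3 to 65.5 for 7 markers of early differentiation and 11.3 to 37.3 for 6 fibroblast markers. Enough counts to be tested were held by 1 of the 7 primitive endoderm, 2 of the 6 trophoblast, 2 of the 7 early differentiation and 1 of the 6 fibroblast markers. In the total libraries *Tfap2c* and *Eomes* of the trophoblast list had 273 to 694 and 43 to 216 counts, and *Dab2* of the primitive endoderm list had 24 to 217. Of those not tested, *Gata6* had 6 to 43 counts and *Cdx2* 0 to 6. In these bulk samples fewer cells that express a gene and less of it per cell cannot be told apart, and a footprint count does not separate the amount of an mRNA from the ribosomes on each copy.

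Levels were compared between genes as footprint density, the normalised CPM per kilobase of counted CDS. In WT total RPFs the PRC2 accessory subunit *Jarid2* and the core subunit *Eed* were the most densely occupied of the 10, and the PRC1 ligase *Ring1* was the least. *Jarid2* had a density of 277, 272 and 279.8 in the 3 WT clones, and *Eed*, the reader of methylated H3 within PRC2, had 255, 262 and 286. The ranges overlapped, and *Jarid2* was the higher in 2 of the 9 total libraries. The catalytic subunit *Ezh2* had 137, 141 and 145 in WT, and *Suz12*, the scaffold of the core, had 138, 122 and 116. These ranges overlapped too, with *Ezh2* the higher in 7 of 9 total libraries. Of the ligases, *Rnf2* had 216, 179 and 191 and *Ring1* 10.7, 10.6 and 7.99, with no overlap in any line.

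The mean WT density fell from *Jarid2* (276 ± 3.74, SD, n = 3) through *Eed* (267 ± 16.2), *Rnf2* (195 ± 19.1), *Mtf2* (187 ± 1.95), *Ezh2* (141 ± 3.70), *Suz12* (125 ± 11.3), *Pcgf6* (90.1 ± 2.32), *Cbx7* (52.5 ± 1.70) and *Kdm2b* (31.0 ± 1.42) to *Ring1* (9.78 ± 1.56). Neighbours in this order did not differ beyond their spread for *Jarid2* and *Eed*, *Rnf2* and *Mtf2*, and *Ezh2* and *Suz12*. Each of the other steps held in 9 of 9 total libraries: *Eed* was 1.37-fold above *Rnf2*, *Mtf2* 1.33-fold above *Ezh2*, *Suz12* 1.39-fold above *Pcgf6*, *Pcgf6* 1.72-fold above *Cbx7*, *Cbx7* 1.69-fold above *Kdm2b* and *Kdm2b* 3.17-fold above *Ring1*. The median density of tested transcripts was 25.4 in WT. *Ring1* alone of the 10 lay below it, at percentile 26.7 of the tested transcripts, while the 5 PRC2 genes lay between percentiles 84.8 and 93.6.

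**Figure D1:**
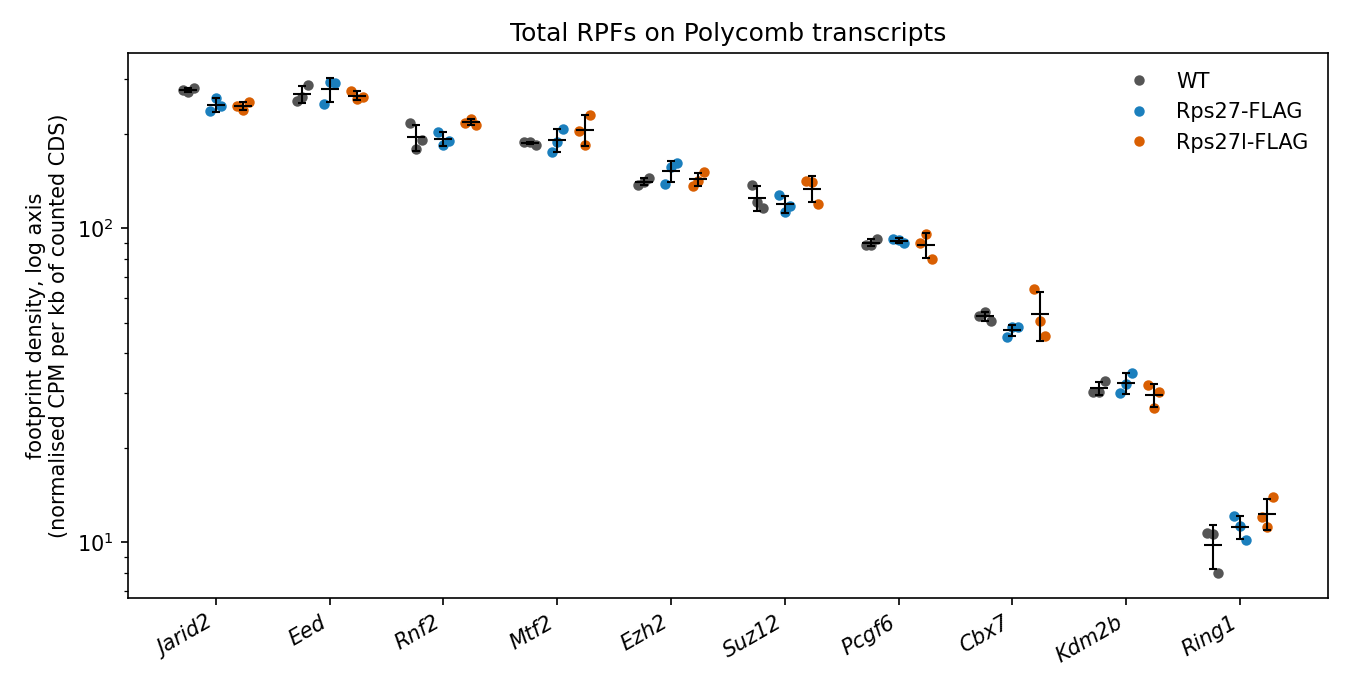
Footprint density of the 10 Polycomb transcripts in total RPFs (normalised CPM per kb of counted CDS, log axis) in order of WT mean. Points are clones, 3 for each of WT, Rps27-FLAG and Rps27l-FLAG, and black bars are the mean ± SD. *Jarid2* is at 276 and *Ring1* at 9.78 in WT, and the 3 lines lie close together for each gene.

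The spread among clones of a line was below the median of tested transcripts for 9 of the 10 genes, all but *Ring1*. The pooled SD of log2 levels among total libraries of the same line was 0.05 for *Jarid2*, at percentile 3.27 of tested transcripts, against a median of 0.16. It lay between 0.08 and 0.12 for *Ezh2*, *Suz12*, *Eed*, *Mtf2*, *Rnf2*, *Pcgf6* and *Kdm2b*. The spread of *Cbx7* was 0.15 and that of *Ring1* 0.18. *Ring1* had 62 to 110 counts in a total library, and counting alone would give it an SD of 0.15, whereas counting would give *Jarid2*, with 5445 to 7470 counts, 0.02.

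Among total RPFs, none of the 10 genes passed an adjusted p of 0.05 between lines when tested by quasi-likelihood in edgeR. Of all tested transcripts 0% were called in each of the 3 comparisons, against 294, 574 and 580 transcripts at an unadjusted p under 0.05 for *Rps27-FLAG* against WT, *Rps27l-FLAG* against WT and *Rps27l-FLAG* against *Rps27-FLAG*. The voom and DESeq2 fits called 0 as well. With the sequencing batch as a replicate block 0.00992%, 1.43% and 1.36% of tested transcripts were called in the same order, and again none of the 10 genes. At an unadjusted p under 0.05, each comparison held 1 of the 10.

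*Jarid2* was that gene in both comparisons with WT, which share the WT clones. Its density of 237, 261 and 246 in *Rps27-FLAG* and of 247, 238 and 253 in *Rps27l-FLAG* lay below all 3 WT clones in every tagged clone. How many of all tested transcripts were separated in this way was not counted. The log2 difference from WT was -0.16 (SE 0.05, adjusted p = 0.999 by edgeR) in *Rps27-FLAG* and -0.17 (SE 0.05, adjusted p = 0.821) in *Rps27l-FLAG*. Within the 3 sequencing batches it was -0.22, -0.06 and -0.19 for *Rps27-FLAG* and -0.17, -0.20 and -0.15 for *Rps27l-FLAG*. *Jarid2* therefore lay lower than WT in 3 of 3 batches in each line, by an amount that did not pass the correction.

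*Rnf2* was the gene in the comparison of the tagged lines. Its density was 203, 185 and 191 in *Rps27-FLAG* and 217, 223 and 214 in *Rps27l-FLAG*, with no overlap, and the log2 difference was 0.18 (SE 0.08, adjusted p = 0.803 by edgeR). The share of all tested transcripts without such overlap was not counted. *Ring1* had the largest fitted difference of the 10, 0.33 for *Rps27l-FLAG* over WT (SE 0.16, adjusted p = 0.821), at 11.997, 11.2 and 13.9 against 10.7, 10.6 and 7.99. The 3rd batch alone gave a log2 difference of 0.80 for *Ring1* and the others 0.16 and 0.07. Over the 10 genes the median log2 difference was 0.03 for *Rps27-FLAG* against WT, 0.03 for *Rps27l-FLAG* against WT and 0.05 between the tagged lines, and over all tested transcripts it was 0.00 in each.

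The balance of subunits was compared as 7 ratios of footprint density in total RPFs. 0 of the 7 differed between the 3 lines after adjustment (exact permutation test over all 1680 assignments of the 9 libraries, two-sided, smallest possible p = 0.00357). The ratio of *Jarid2* to *Mtf2*, the accessory subunits of alternative PRC2 assemblies, came closest. Its log2 value was 0.55, 0.53 and 0.59 in WT, 0.43, 0.46 and 0.24 in *Rps27-FLAG* and 0.27, 0.37 and 0.13 in *Rps27l-FLAG*. The WT clones lay above all 6 tagged clones, while the tagged lines overlapped (exact permutation p = 0.0429, adjusted p = 0.300). *Eed* stood above *Suz12* by 2.14-fold in WT, 2.31-fold in *Rps27-FLAG* and 1.98-fold in *Rps27l-FLAG*, and *Ezh2* above *Suz12* by 1.13-fold, 1.27-fold and 1.07-fold in the same order. For the ligases, *Rnf2* exceeded *Ring1* by 20.0-fold, 17.2-fold and 17.7-fold. *Pcgf6* exceeded *Kdm2b* by 2.91-fold, 2.85-fold and 3.01-fold, and *Cbx7* stood at 0.270, 0.246 and 0.243 of *Rnf2*. The summed density of the PRC2 core (*Ezh2*, *Suz12* and *Eed*) was 2.61-fold, 2.69-fold and 2.35-fold that of *Rnf2* and *Ring1* together. None of these 6 ratios passed, with adjusted p of 0.540 to 0.868 in the exact test.

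The IP and total libraries of a clone came from one lysate, so the recovery of each transcript with tagged ribosomes was read as log2 IP over total RPFs within a clone. *Suz12*, *Jarid2* and *Kdm2b* were below 0 in 6 of 6 clones. *Ezh2*, *Eed*, *Mtf2*, *Rnf2* and *Pcgf6* were above 0 in 6 of 6 clones. *Ring1* was above 0 in 3 clones and *Cbx7* in 2. Among all tested transcripts 22.6% were below 0 in all 6 clones and 16.4% above. Values are relative to the bulk of transcripts, since total and IP libraries were scaled separately.

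*Jarid2* (18 exons, chr13:44731271-44921643, plus strand, GRCm38) fell in the IP of both lines. Its log2 IP over total was -0.30, -0.32 and -0.25 in the *Rps27-FLAG* clones and -0.26, -0.22 and -0.26 in the *Rps27l-FLAG* clones, and its IP and total densities did not overlap in either line. The fitted change was -0.29 (SE 0.06, adjusted p = 0.0407 by edgeR) in *Rps27-FLAG* and -0.25 (SE 0.04, adjusted p = 0.0244) in *Rps27l-FLAG*. It was the only one of the 10 called, in a test without the clone as a block that called 5.34% of tested transcripts lower and 0.327% higher in *Rps27-FLAG*, and 2.27% lower and 0.833% higher in *Rps27l-FLAG*. The call in *Rps27-FLAG* was lost with the size factors of DESeq2 (adjusted p = 0.0752 in edgeR). The call of *Jarid2* was also lost without clone 2c3 or 2c4 of *Rps27-FLAG* and without clone 4a2 or 4a3 of *Rps27l-FLAG*. Those fits called 0 of all 10085 tested transcripts, so the loss was not particular to *Jarid2*. Without clone 4b7 of *Rps27l-FLAG* 78 transcripts were called higher and 241 lower, and *Jarid2* was at an adjusted p of 0.0514 by edgeR.

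*Suz12* (16 exons, chr11:79993106-80034123, plus strand) had the lowest fitted value of the 10 in both lines. It was at -0.28, -0.38 and -0.30 in the *Rps27-FLAG* clones and -0.30, -0.32 and -0.18 in the *Rps27l-FLAG* clones. The fit gave -0.32 (SE 0.08, adjusted p = 0.0747 by edgeR) and -0.27 (SE 0.08, adjusted p = 0.122). *Kdm2b* was at -0.23, -0.15 and -0.36 and at -0.23, -0.30 and -0.27, with fitted values of -0.25 (adjusted p = 0.119) and -0.26 (adjusted p = 0.241). Both were below 0 in every tagged clone, but neither passed the test without the block.

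The members above 0 had smaller values. *Rnf2* was at 0.13, 0.18 and 0.21 in *Rps27-FLAG* and 0.11, 0.05 and 0.09 in *Rps27l-FLAG*. *Pcgf6* was at 0.08, 0.19 and 0.20 and at 0.20, 0.18 and 0.06. *Mtf2* was at 0.14, 0.08 and 0.10 and at 0.08, 0.17 and 0.11. *Ezh2* and *Eed*, the other core subunits beside *Suz12*, thus lay on the opposite side of 0 from it. *Ezh2* was at 0.12, 0.06 and 0.14 in *Rps27-FLAG* and at 0.01, 0.05 and 0.02 in *Rps27l-FLAG*, and *Eed* at 0.09, 0.15 and 0.03 and at 0.05, 0.06 and 0.08.

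**Figure D2:**
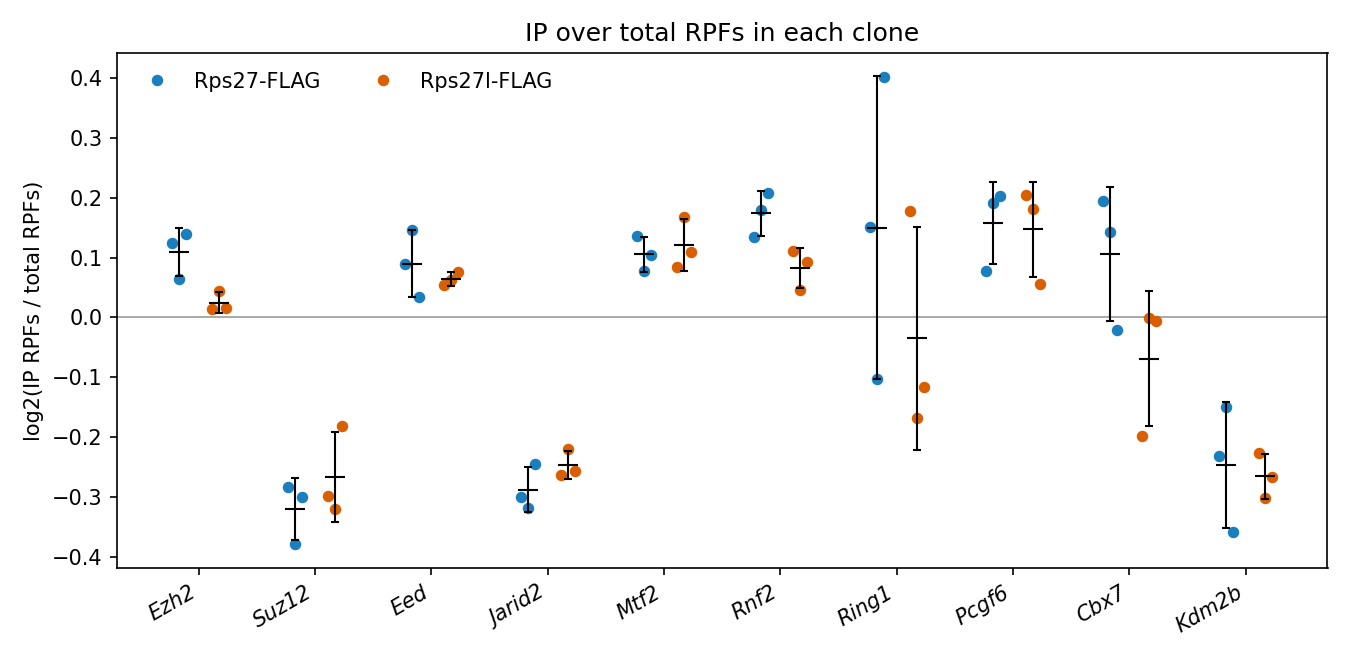
Log2 of IP over total RPFs for each Polycomb transcript, with a point for each of the 3 clones of Rps27-FLAG and of Rps27l-FLAG and black bars for the mean ± SD. *Suz12*, *Jarid2* and *Kdm2b* lie below 0 in 6 of 6 clones, and *Ring1* and *Cbx7* scatter around 0.

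With the clone as a replicate block, which uses the pairing of IP and total libraries, 8 of the 10 genes were called in *Rps27-FLAG*. This fit called 22.9% of tested transcripts lower and 18.3% higher, so calls were common. Its p-values rest on the spread left once clone differences are removed, moderated over all tested transcripts, and not on the clones of a line alone. *Suz12* (-0.32, adjusted p = 2.22e-19 by edgeR), *Jarid2* (-0.29, adjusted p = 1.85e-20) and *Kdm2b* (-0.24, adjusted p = 5.22e-07) fell. *Ezh2* (0.11, adjusted p = 0.00201), *Eed* (0.09, adjusted p = 0.00888), *Mtf2* (0.11, adjusted p = 0.00245), *Rnf2* (0.17, adjusted p = 6.89e-06) and *Pcgf6* (0.15, adjusted p = 0.00593) rose. In *Rps27l-FLAG* the same fit called 19% of tested transcripts lower and 12% higher, and 5 of the 10 genes. There *Suz12* (-0.27, adjusted p = 4.63e-10), *Jarid2* (-0.25, adjusted p = 2.10e-11) and *Kdm2b* (-0.26, adjusted p = 7.51e-06) fell and *Mtf2* (0.12, adjusted p = 0.00129) and *Pcgf6* (0.16, adjusted p = 0.01005) rose.

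Log2 IP over total declined with CDS length over all tested transcripts, and *Jarid2* (3705 nt) and *Kdm2b* (3930 nt) have the longest CDS of the 10. A loess trend on length gave -0.24 at the length of *Jarid2* and -0.26 at that of *Kdm2b* in *Rps27-FLAG*, and -0.20 and -0.22 in *Rps27l-FLAG*, close to their own values. *Suz12* (2226 nt) and *Ezh2* (2124 nt) are of nearly the same length, where the trend was -0.12 and -0.11 in *Rps27-FLAG*. *Suz12* lay 0.20 below the trend and *Ezh2* 0.22 above it in that line, and 0.16 below and 0.13 above in *Rps27l-FLAG*. With the block and the trend removed, *Ezh2*, *Suz12*, *Eed*, *Mtf2*, *Rnf2* and *Pcgf6* were called in *Rps27-FLAG*, and *Ezh2*, *Suz12*, *Eed*, *Mtf2* and *Pcgf6* in *Rps27l-FLAG*. *Jarid2* and *Kdm2b* were called in neither. This fit called 1855 of 10085 tested transcripts higher and 1308 lower in *Rps27-FLAG*, and 1485 higher and 813 lower in *Rps27l-FLAG*, so calls were common here too. What the length trend itself reflects was not tested.

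**Figure D3:**
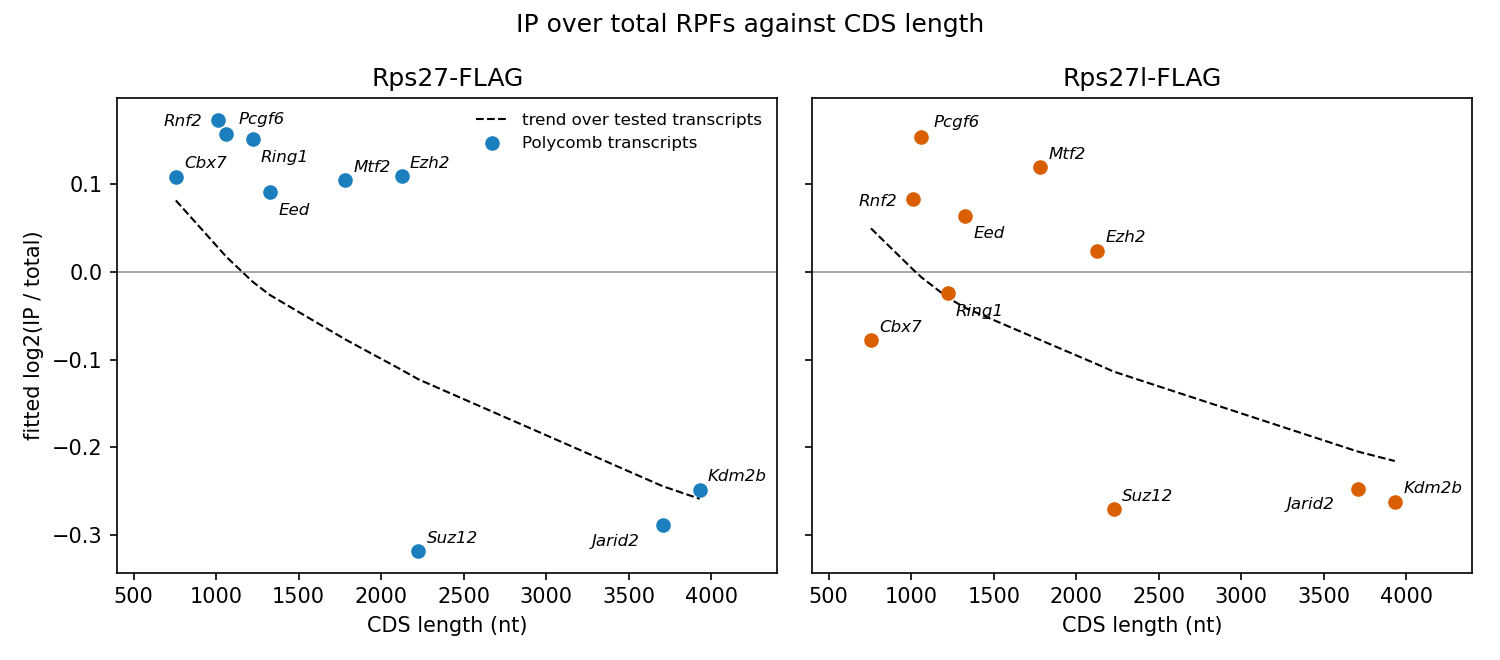
Fitted log2 of IP over total RPFs against CDS length (nt) for the 10 Polycomb transcripts in each tagged line. The dashed line joins the values of the loess trend over tested transcripts at the lengths of the 10, and *Suz12* lies below it while *Ezh2*, of nearly the same length, lies above.

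The subunit ratios moved with the IP in the same way. Over the 6 tagged clones the log2 ratio of *Ezh2* to *Suz12* was higher in IP than in total RPFs by 0.36 ± 0.09 (SD), that of *Eed* to *Suz12* by 0.37 ± 0.09 and that of *Pcgf6* to *Kdm2b* by 0.41 ± 0.10, in 6 of 6 clones each. The ratio of *Jarid2* to *Mtf2* was lower in 6 of 6 clones, at -0.38 ± 0.03, and that of the PRC2 core to the RING ligases at -0.13 ± 0.05. Each of these 5 gave the smallest p that an exact sign-flip test of 6 clones allows, 0.0312, with an adjusted p of 0.0437 over 7 ratios. The pairs of single genes among them set a gene below 0 in 6 of 6 clones against a gene above 0 in 6 of 6. Their p was thus fixed by the values given before, and the test, added after the data were seen, adds no support. With the block and the length trend removed, *Pcgf6* was at 0.14 and *Kdm2b* at 0.02 in *Rps27-FLAG*, and at 0.16 and -0.05 in *Rps27l-FLAG*, so that pair lay much closer together. *Jarid2* and *Mtf2* were then at -0.04 and 0.18 in *Rps27-FLAG* and at -0.04 and 0.20 in *Rps27l-FLAG*. The ratios rest on the same libraries as the values above and the pooling of lines treats their clones alike, so they are a second view of those values. *Rnf2* over *Ring1* (0.07 ± 0.19, exact p = 0.406) and *Cbx7* over *Rnf2* (-0.11 ± 0.14, exact p = 0.125) did not pass.

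**Figure D4:**
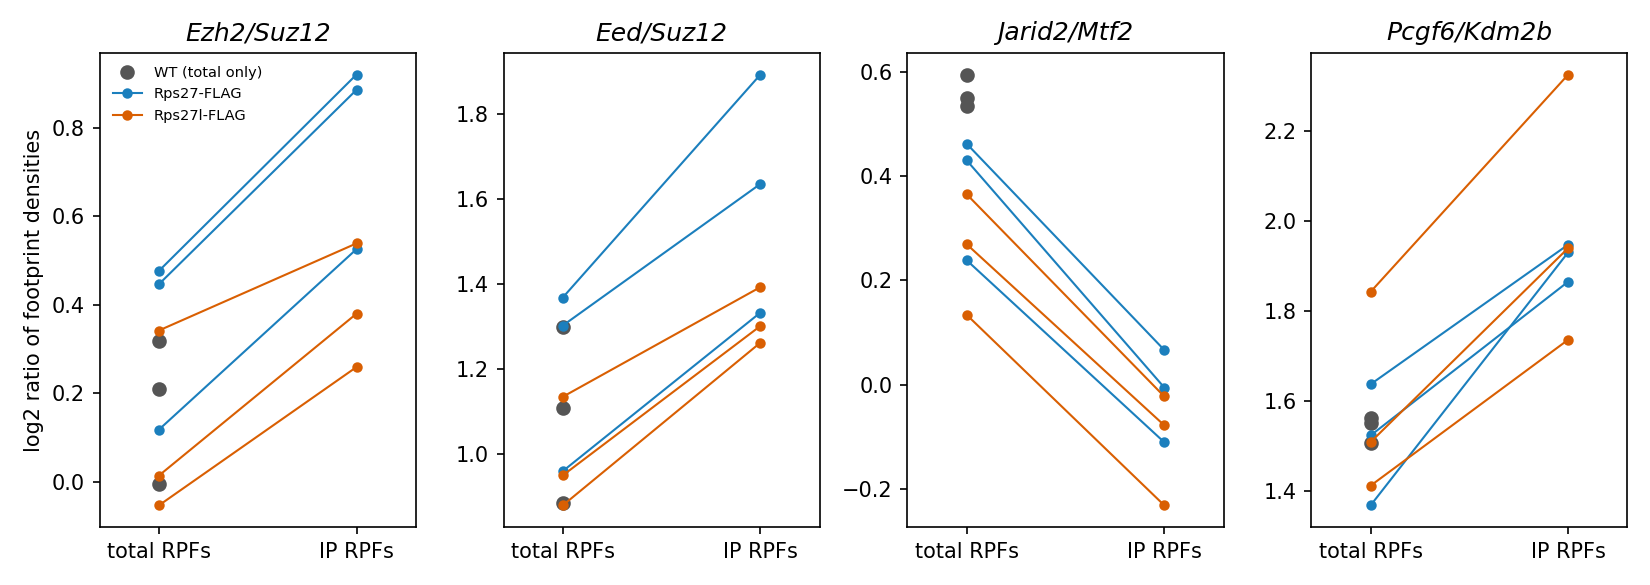
Log2 ratio of footprint densities for 4 pairs of subunits in total and IP RPFs. Lines join the total and IP library of a clone, and gray points are the 3 WT clones, which have total RPFs only. *Ezh2/Suz12*, *Eed/Suz12* and *Pcgf6/Kdm2b* rise in 6 of 6 clones and *Jarid2/Mtf2* falls in 6 of 6.

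Whether IP over total differed between the tagged lines was tested with an interaction term and the clone as a block. The test called 1.50% of tested transcripts and none of the 10 (lowest adjusted p = 0.433, for *Ezh2*, by edgeR). *Ezh2* and *Rnf2* were the members whose clones did not overlap between the lines, both lower in *Rps27l-FLAG*, with fitted differences of -0.08 (SE 0.04, adjusted p = 0.433) and -0.09 (SE 0.05, adjusted p = 0.491). How many of all tested transcripts lacked such overlap was not counted, so this separation is not read as a result about these genes. *Cbx7*, the chromodomain subunit, had the largest fitted difference, -0.21 for *Rps27l-FLAG* minus *Rps27-FLAG* (SE 0.11, adjusted p = 0.479), at 0.19, 0.14 and -0.02 in the *Rps27-FLAG* clones and -0.20, -0.0016 and -0.0061 in the *Rps27l-FLAG* clones, which overlapped. For *Suz12* the difference was 0.04, with an interval of -0.05 to 0.14 at 2 SE on either side, and for *Jarid2* 0.04, with an interval of -0.03 to 0.12. No difference between the lines was detected for either, within those intervals.

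Of other Polycomb genes, 8 of 9 PRC2-associated and 30 of 33 PRC1-associated genes in the table were tested. *Rbbp4* and *Rbbp7*, the histone chaperones of PRC2, had WT densities of 662 ± 43.2 and 518 ± 11.7 (SD, n = 3), above every one of the 10, and *Ezh1* had 12.1 ± 1.06. *Bmi1* and *Cbx8*, subunits of canonical PRC1, had 10 to 17 and 1 to 8 counts in a total library and were not tested. None of either list was called between lines in total RPFs without a block. With the batch as a replicate block *Bcor*, a subunit of the PRC1 that holds Kdm2b, was lower in *Rps27l-FLAG* than in WT (-0.56, adjusted p = 0.0413 by edgeR) and than in *Rps27-FLAG* (-0.60, adjusted p = 0.0309). It was the 1 called of the 30 PRC1-associated genes, in a fit that called 1.43% and 1.36% of all tested transcripts in these comparisons. Its density varied among the WT clones, at 25.4 ± 9.15 (SD, n = 3).

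In the IP against total comparison, where 5.34% of all tested transcripts were called lower in *Rps27-FLAG* and 2.27% in *Rps27l-FLAG*, 1 of 30 PRC1-associated genes was called lower in *Rps27-FLAG*, the deacetylase *Hdac2* (-0.28, adjusted p = 0.0274 by edgeR), and 1 in *Rps27l-FLAG*, *Mga* (-0.37, adjusted p = 0.0201), which shares a complex with Pcgf6. With the clone as a replicate block 4 rose and 9 fell in *Rps27-FLAG*, and 2 rose and 10 fell in *Rps27l-FLAG*, against 18.3% of all tested transcripts higher and 22.9% lower in *Rps27-FLAG* and 12% and 19% in *Rps27l-FLAG*. Of the 8 genes that remove Polycomb marks, the H3 demethylase *Kdm6a* fell in both lines (-0.58, adjusted p = 0.0110, and -0.48, adjusted p = 0.0447), and the H2A deubiquitinase *Bap1* in *Rps27l-FLAG* (-0.59, adjusted p = 0.0267) and, at -0.41, not in *Rps27-FLAG* (adjusted p = 0.0835). The median log2 IP over total was 0.01 and -0.06 over the PRC1-associated genes, 0.04 and 0.00 over the PRC2-associated genes and -0.08 and -0.15 over the removal genes in *Rps27-FLAG* and *Rps27l-FLAG*, against -0.01 and -0.03 over all tested transcripts. None of these values was adjusted for CDS length. The CDS has 9129 nt in *Mga*, 4206 nt in *Kdm6a* and 1467 nt in *Hdac2*. It has 2187 nt (*Bap1*) to 6615 nt (*Asxl3*) over the removal genes, against a median of 1441.5 nt over tested transcripts.

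Of the genes known as targets of Polycomb silencing, *Tbx3*, a T-box transcription factor, had a WT density of 101 ± 49.3 (SD, n = 3). It was called in none of the 3 comparisons of total RPFs without a block. With the batch as a replicate block it was higher in *Rps27l-FLAG* than in *Rps27-FLAG* total RPFs (0.53, adjusted p = 0.0386 by edgeR). That fit called 1.36% of all tested transcripts, and *Tbx3* was 1 of the 2 listed targets that were tested. The summed level of the 7 primitive endoderm markers was 25.1 to 54.8 normalised CPM in *Rps27l-FLAG*, 10.4 to 25.9 in *Rps27-FLAG* and 10.2 to 31.3 in WT total libraries, and its part in the *Tbx3* difference was not tested. Targets that did not pass the filter on low counts included *Hoxa7*, with 0 to 1 counts in a total library, and *Pax6*, with 6 to 141.

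The transcripts whose levels tracked *Ezh2* most closely over the 9 total libraries were *Vps29* (Pearson r = 0.960), *Ssb* (r = 0.959) and *Apex1* (r = 0.953). Of the other 9 Polycomb genes, *Eed* had the highest r with *Ezh2* at 0.72 and *Suz12* the lowest at -0.75. These libraries share 3 sequencing batches and depths, so the values are a description of 9 points.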

How the data were processed

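The authors cut adapters with cutadapt 2.4, removed duplicates by molecular identifier with UMI-tools 1.0.1, and aligned footprints with Bowtie2 2.3.4.3 to GRCm38 (mm10) transcripts, 1 transcript per gene. The deposited counts are ribosome A sites per CDS, leaving out the first 15 and last 5 codons, from unique alignments. No column was left out. Transcripts were paired with genes through GENCODE M21 (21723 of 21727 matched).

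Here transcripts with CPM over 2 in at least 14 libraries were tested with edgeR 4.0.16 (quasi-likelihood, TMM separately for IP and total libraries, Benjamini-Hochberg adjustment) in R 4.3.3, with limma 3.58.1 and DESeq2 1.42.0 as alternatives. Log2 differences within a clone or a batch and the subunit ratios used 0.5 added counts, and normalised CPM had none added. IP and total libraries with one replicate number in the labels share a clone, which was the replicate block of the paired fit (residual correlations 0.468 to 0.790 in 6 pairs). Replicate numbers of total libraries mark a sequencing batch, as the study's list of clones names it. Residual correlations between total libraries of a batch ranged from -0.164 to 0.713 in 9 pairs, so the batch block was less evenly borne out than the clone block. Some of the fits were tested on simulated counts that had larger changes than those given here and no clone or batch differences. The blocked fits of IP against total RPFs were not among them. P-values of the fits without a block measure the spread between clones. With a block they measure the spread left after differences between clones or batches are removed. In edgeR each spread is moderated over all tested transcripts, so very small p-values do not rest on the clones of a line alone. Clones of a line are few. The intervals of 2 SE come from the edgeR fit, whereas the SD given for counting alone covers counting error only.

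The members, gene lists and named genes (members called, at an unadjusted p under 0.05, or past 0.2 in log2 difference) were chosen with earlier results of these data known. The sign-flip test was added after the data were seen. Sequences were read with Biopython 1.88.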

Additional observations from a re-analysis of the deposited data

How the results depend on the processing

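The 3 comparisons between lines in total RPFs called 0 of the 10 genes under every alternative tried, which included voom, DESeq2, other filters and scalings, the replicate block and each clone left out. For IP against total RPFs in *Rps27-FLAG*, where 1 gene was called, DESeq2 called 2 (*Suz12* and *Jarid2*), the size factors of DESeq2 in edgeR 0, the replicate block 8 and the replicate block with the CDS length trend removed 6. That last fit called 1855 of 10085 tested transcripts higher and 1308 lower. Leaving out 1 clone gave 0 to 4, and leaving out 1 clone under the replicate block gave 8, 6 and 6. The fit that gave 4, without clone 2b12, called 677 of 10085 tested transcripts higher and 1140 lower, and the fits without 2c3 or 2c4 called 0. Under the block the fits with 1 clone left out called 1421 to 1480 higher and 1890 to 1955 lower. In *Rps27l-FLAG*, where 1 gene was called, the replicate block gave 5 with or without the trend, but only *Suz12*, *Mtf2* and *Pcgf6* were in both sets. The block called 1209 of 10085 tested transcripts higher and 1919 lower, and with the trend removed 1485 higher and 813 lower. Leaving out 1 clone gave 0 to 1, and leaving out 1 clone under the block gave 4, 4 and 5. Of all tested transcripts, the fits without 4a2 or 4a3 called 0 and the fit without 4b7 called 78 higher and 241 lower. Under the block the fits with 1 clone left out called 932 to 974 higher and 1449 to 1578 lower. The 1 gene called without clone 4b7 was *Suz12* in place of *Jarid2*. *Kdm2b* turned from below to above 0 in *Rps27-FLAG*, at 0.019, with the block and the trend removed. The number of subunit ratios that differed between lines was 0, and 0 to 1 with 1 clone left out. None of the 10 was called for a difference between lines in IP over total, with or without the clone as a replicate block. Low counts limit *Ring1* most.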
